A study of Mus musculus with 8 samples.

Results

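The proteasome gene set consisted of 48 genes of the microglial transcriptome, chosen by name from the 56832 gene entries of the deposited table. A gene belonged to it if its symbol was Psm followed by a letter from a to g and a number (with a final a or b allowed), and if its mean over the 8 libraries was at least 10 normalized counts. Normalized counts are reads per gene divided by a size factor for each library. The name pattern matched 49 genes, and Psmb11, the catalytic subunit of the thymus form of the proteasome, was left out because 1 read in 1 library gave it a mean of 0.136. The lowest member was Psma8 with a mean of 89.6 normalized counts, well above the limit. The same limit left 14428 genes of the whole table for testing.

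The RNA came from microglia, the resident macrophages of the brain, sorted by flow cytometry from male mice. According to the labels, the ethanol group (4 libraries) received ethanol intraperitoneally at 3 g/kg as a 20% solution, on 5 days of each week for 4 weeks, and was then withdrawn from it for 2 weeks. The saline group (4 libraries) followed the same schedule with saline. The series title places the study in young adult 5xFAD mice, which carry human amyloid precursor protein and presenilin transgenes with familial Alzheimer disease mutations, so both groups share this background and no mice without the transgenes were analysed here. Because the RNA was taken after withdrawal, it describes the state left by the schedule and not the acute presence of ethanol. The labels number the samples 1 to 4 in each group without saying that each is a separate mouse, and p-values therefore measure the spread between these samples, which may be technical in part.

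The proteasome is the barrel-shaped protease that degrades proteins tagged with ubiquitin. Its 20S core is built from outer rings of alpha subunits (Psma genes) and inner rings of beta subunits (Psmb genes), and only PSMB5, PSMB6 and PSMB7 cut peptide bonds in the constitutive form. Interferon-gamma induces PSMB8, PSMB9 and PSMB10, which take the places of these catalytic subunits in newly built particles called immunoproteasomes and favour peptides that fit MHC class I molecules. The 19S particle, with its Psmc ATPases and Psmd subunits, recognises ubiquitin and feeds the substrate into the core, while PA28 and PA200 (Psme genes) are alternative caps. In the brain, microglia are a main site of immunoproteasome expression, and its induction in microglia has been described around amyloid plaques.

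By these roles the members were 18 genes of the core (8 alpha ring, 4 non-catalytic beta ring, 3 constitutive catalytic and 3 immunoproteasome catalytic) and 17 genes of the 19S particle (6 ATPases and 11 non-ATPase subunits). The remaining members were 5 PA28 and PA200 activators, the regulator Psmf1 (PI31), 3 chaperones of 19S assembly (Psmd5, Psmd9 and Psmd10) and 4 chaperones of 20S assembly (Psmg1 to Psmg4). The last 2 groups help to build the particle and are not subunits of the finished one.

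The libraries held 14271351 to 17231301 reads assigned to genes, and the least covered member still had at least 43 reads in every library. All 10 microglia markers had means of at least 10, and their summed level was 778005 to 815903 normalized counts in ethanol libraries and 735449 to 808118 in saline libraries. Neutrophil markers (9 of 9 with a mean of at least 10) summed to 2542 to 10811 in ethanol libraries and 2755 to 14362 in saline libraries. Monocyte markers (6 of 7) summed to 508 to 994 in ethanol libraries and 531 to 1575 in saline libraries, and border macrophage markers (7 of 8) to 548 to 903 in ethanol libraries and 378 to 1757 in saline libraries. Astrocyte markers (6 of 6) summed to 6299.6 to 9149 in ethanol libraries and 6884 to 8604 in saline libraries, oligodendrocyte lineage markers (3 of 6) to 1022 to 1518 in ethanol libraries and 947 to 1403 in saline libraries, and neuron markers (4 of 6) to 124 to 242 in ethanol libraries and 102 to 220 in saline libraries. Endothelial and mural markers (2 of 7, with 3 at 0 in all libraries) summed to 426 to 521 in ethanol libraries and 410 to 529 in saline libraries. None of 14 lymphocyte markers reached a mean of 10, and 5 of them were at 0 in all 8 libraries. Blood leukocytes also express immunoproteasome genes, and the part of these and the other cell types in the values below was not tested. In bulk RNA, fewer cells of a type and less RNA per cell cannot be told apart.

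The promoters of catalytic subunit genes are shown for the letters of the GAS element of interferon-gamma target genes (TTCNNNGAA) and of the antioxidant response element that NRF factors bind (TGACNNNGC). These 300-base windows run from 250 bases before to 50 bases after each RefSeq start, on GRCm38.p6, and are printed 5′ to 3′ on the strand of the gene with matches in capitals. The windows are chr17:34197945-34198244 on the plus strand for Psmb8 and chr17:34187281-34187580 on the minus strand for Psmb9. Those for the constitutive genes are chr14:54617946-54618245 on the minus strand for Psmb5 and chr11:70525107-70525406 on the plus strand for Psmb6.
Psmb8: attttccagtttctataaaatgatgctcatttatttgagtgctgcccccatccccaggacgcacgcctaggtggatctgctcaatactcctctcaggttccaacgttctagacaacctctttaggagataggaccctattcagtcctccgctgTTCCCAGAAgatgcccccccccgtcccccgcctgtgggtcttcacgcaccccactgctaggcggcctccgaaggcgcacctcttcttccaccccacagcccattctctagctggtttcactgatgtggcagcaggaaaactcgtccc
Psmb9: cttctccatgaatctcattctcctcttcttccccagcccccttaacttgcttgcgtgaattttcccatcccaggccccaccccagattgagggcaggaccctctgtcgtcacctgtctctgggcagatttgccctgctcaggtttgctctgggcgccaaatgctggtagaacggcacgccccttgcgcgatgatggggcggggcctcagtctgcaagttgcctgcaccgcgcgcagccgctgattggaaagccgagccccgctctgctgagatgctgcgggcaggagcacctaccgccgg
Psmb5: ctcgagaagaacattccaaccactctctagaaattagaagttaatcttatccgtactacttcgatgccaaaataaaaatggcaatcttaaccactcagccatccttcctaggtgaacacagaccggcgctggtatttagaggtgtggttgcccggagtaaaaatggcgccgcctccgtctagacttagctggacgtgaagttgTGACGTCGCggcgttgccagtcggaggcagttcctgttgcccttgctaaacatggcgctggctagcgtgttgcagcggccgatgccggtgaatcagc
Psmb6: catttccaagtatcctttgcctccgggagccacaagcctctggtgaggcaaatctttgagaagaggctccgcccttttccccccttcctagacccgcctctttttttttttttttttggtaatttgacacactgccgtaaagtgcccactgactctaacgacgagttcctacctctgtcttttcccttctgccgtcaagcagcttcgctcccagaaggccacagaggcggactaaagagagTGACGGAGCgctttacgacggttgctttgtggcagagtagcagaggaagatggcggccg

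In the Psmb8 window a TTCNNNGAA match began at position -97 relative to the start, whereas the Psmb9 window held neither this match nor a TGACNNNGC match. TGACNNNGC began at position -47 in the Psmb5 window and at -9 in the Psmb6 window. The Psmb10 window held none of these letters and is not printed, a choice made after the matches were seen. RefSeq windows were found for 40 members (43 windows), and not for Psma8, Psmb1, Psmb2, Psmb7, Psmc3, Psmd3, Psmd7 and Psmg2. On either strand, TTCNNNGAA was present in 3 of the 43 windows (6.98%; Psmb8, Psmd2 and Psmg1) and in 8.3% of all 32851 RefSeq windows. TGACNNNGC was present in 6 of them (14%; Psmb5, Psmb6, Psmc6, Psmd9, Psmd12 and Psme4) and in 12.4% of all windows. The GAAANNGAAA letters of the interferon-stimulated response element were present in 5 (11.6%; Psmb3, Psmd4, Psmd9, Psme1 and Psmg4) and in 3.44% of all windows, and CCAAT, the NF-Y element, in 13 (30.2%) and 37.4%. Such matches describe the letters in these windows and do not show binding.

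The RNA of both groups held reads of all 48 members in every library, which the limit on the mean made likely in advance. The highest levels were those of core genes, and Psma8 was the only core gene among the lowest listed here. Divided by exon length, the highest means over the 8 libraries were 2903 normalized counts per kb for the caspase-like subunit gene Psmb6, 2878 for the beta ring gene Psmb3 and 2109 for the alpha ring gene Psma7. Psme2, which encodes the beta chain of PA28, followed with 1852 and Psma1 with 1816. The lowest were Psma8 with 52.9, the testis form of the Psma7 subunit, the PA200 gene Psme4 with 111, Psmd9 with 120, Psmf1 with 185 and Psmg4 with 207. The immunoproteasome genes lay between, at 1260 for Psmb8, 1214 for Psmb10 and 616 for Psmb9, and the constitutive genes they replace at 683 for Psmb5, 2903 for Psmb6 and 390 for Psmb7. Per kb, the ratio of Psmb8 to Psmb5 was 1.60 to 2.28 and that of Psmb10 to Psmb7 was 2.46 to 4.10 across the libraries, while the ratio of Psmb9 to Psmb6 was 0.173 to 0.240. Transcripts of immunoproteasome genes were thus above those of their constitutive counterparts for 2 of the 3 pairs and below for the third in every library. Lengths are those of the GENCODE M21 exons on GRCm38, joined over all protein-coding transcripts of a gene. The reads were counted on GRCm39.

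**Figure D1:**
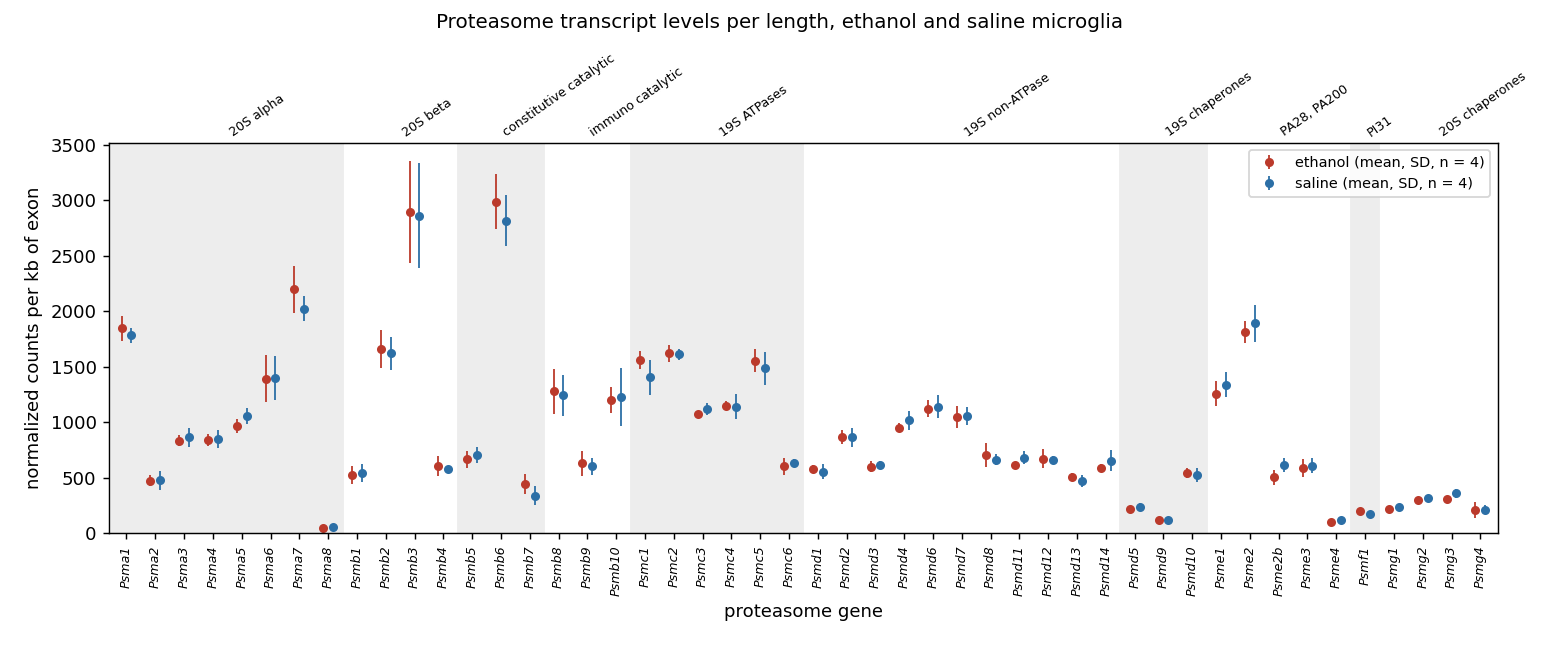
Levels of the 48 proteasome genes in normalized counts per kb of exon, grouped by role, with ethanol (red) left of saline (blue) and bars for the SD of 4 libraries. Psmb6 and Psmb3 are the highest and Psma8 the lowest, and the bars of the groups overlap for most genes.

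The spread of the members among the libraries was set beside that of other genes. Without division by length, member means ran from 89.6 (Psma8) to 2885 normalized counts (Psmc2, a 19S ATPase), with a median of 1471. The coefficient of variation over all 8 libraries was 3.64% for Psmc2 and 26.1% for Psmg4, the ends of its range, with a median of 9.54%. For the 30 members with means of at least 1000 the median was 8.64%, against 8.79% over the 3450 tested genes of that level, so the spread of the members was near that of other genes.

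Between the groups, no proteasome gene passed the test. The limma fit on log2(value + 1), with Benjamini-Hochberg adjustment over the 14428 tested genes at 0.05, called 0 of 48 members and 0% of all tested genes. The lowest adjusted p of a member was 0.997. At an unadjusted p under 0.05, 2 of 48 members were counted, Psmb7 in the higher direction and Psme2b in the lower, beside 3.63% of all tested genes, a share near the background. The edgeR quasi-likelihood test and DESeq2, run on whole reads recovered from the normalized counts, also called 0 members and 0 genes. At an unadjusted p under 0.05, edgeR counted 2 members beside 3.43% of its 14428 genes, and DESeq2 counted 3 members beside 2.9% of its 26782 genes with a p. The DESeq2 genes include those under the mean limit, so its share is not over the same genes as the others.

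The summed level of the set was 64162, 64419, 67807 and 69778 normalized counts in ethanol libraries, against 64652, 64843, 70472 and 66800 in saline libraries. The group means were 66542 ± 2723 for ethanol and 66692 ± 2701 for saline (SD, n = 4 each). Fold changes (ethanol over saline) were positive for 21 members and negative for 27, with a median log2 value of -0.01, and the median over all tested genes was also -0.01. They ran from -0.31 for Psma8 to 0.40 for Psmb7. As a measure of precision, the 95% interval of the fold change excluded a change of 1.5-fold in either direction for 44 of 48 members (91.7%) and of 1.25-fold for 31 (64.6%). Over all tested genes the interval excluded 1.5-fold for 56.3% and 1.25-fold for 24.4%. Among genes with means of at least 1000 it excluded 1.5-fold for 30 of 30 members and for 99.5% of all tested genes of that level. At 1.25-fold these were 28 of 30 members (93.3%) and 75.7%.

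**Figure D2:**
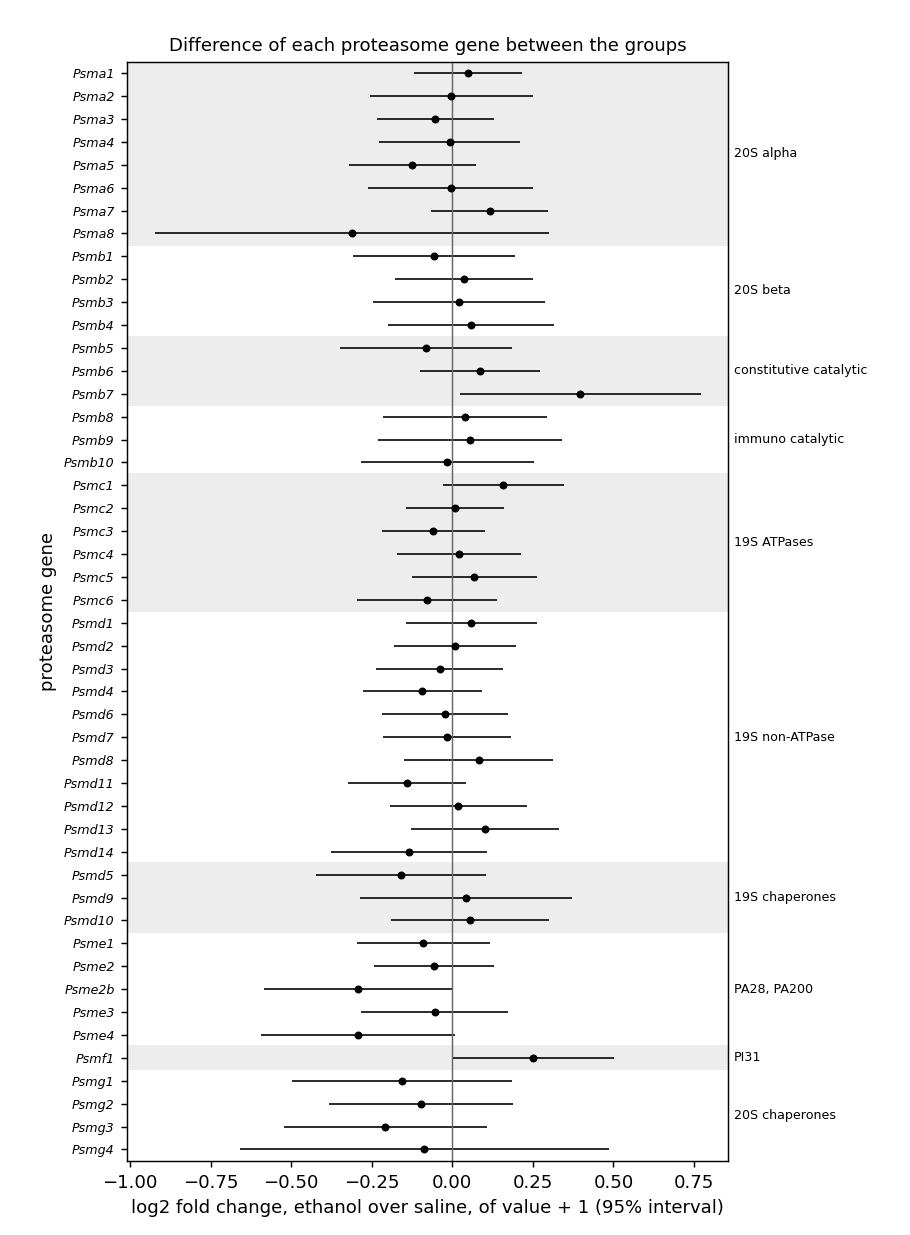
Log2 fold change (ethanol over saline) of each proteasome gene on the log2(value + 1) scale, with the 95% interval from limma over 4 libraries per group. Psmb7 stands farthest above 0 at 0.40 and Psma8 farthest below at -0.31, and 21 genes lie above 0 and 27 below.

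The levels of the immunoproteasome genes overlapped between the groups. Psmb8, the chymotrypsin-like subunit gene, had 1779, 1820, 2431 and 2287 normalized counts in ethanol libraries, against 1841, 1743, 2430 and 2073 in saline libraries. Its means were 2079 ± 329 for ethanol and 2022 ± 306 for saline (SD, n = 4 each), a fold change of 1.03 with a 95% interval of 0.862 to 1.22. The highest value of each group was in sample 3 and the lowest of all libraries was saline sample 2.

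Psmb9, which replaces the caspase-like subunit, had 670, 791, 1015 and 927 normalized counts in ethanol libraries, against 770, 731, 962 and 790 in saline libraries, and its fold change was 1.04 (0.852 to 1.27). Psmb10, which replaces the trypsin-like subunit, had 1417, 1472, 1679 and 1726 in ethanol libraries, against 1464, 1283, 2085 and 1610 in saline libraries, with a fold change of 0.989 (0.822 to 1.19). For Psmb9 the highest and the lowest library were both in the ethanol group, and for Psmb10 both were in the saline group. In the limma fit these 3 genes each had an adjusted p of 0.997.

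Among the constitutive catalytic genes, Psmb7 had the largest positive fold change of the set. It had 414, 438, 605 and 598 normalized counts in ethanol libraries, against 332, 352, 536 and 347 in saline libraries. The means were 514 ± 102 for ethanol and 392 ± 96.6 for saline (SD, n = 4 each), and the fold change was 1.32 (1.02 to 1.71) with an unadjusted limma p of 0.0387 and an adjusted p of 0.997. Saline sample 3 alone lay among the ethanol values, and the other saline libraries were below every ethanol library. Exons of Psmb7 share 253 bases with Nek6, a kinase gene on the opposite strand in GENCODE M21. The library kit does not mark strand, so reads from the shared bases cannot be told apart. Nek6 averaged 2938 ± 192 normalized counts in ethanol and 2815 ± 183 in saline (SD, n = 4 each).

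The other constitutive genes showed smaller differences. Psmb5 had 616, 509, 589 and 674 normalized counts in ethanol libraries, against 600, 553, 679 and 693 in saline libraries, with a fold change of 0.945 (0.786 to 1.14). Psmb6 had 2282, 2164, 2592 and 2502 in ethanol libraries, against 2187, 2017, 2367 and 2417 in saline libraries, with a fold change of 1.06 (0.933 to 1.21). The groups overlapped for both genes.

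Because an immunoproteasome subunit displaces its constitutive counterpart, the ratio of each pair was compared, which does not depend on the size factors. The ratio of Psmb10 to Psmb7 was 3.42, 3.36, 2.78 and 2.89 in ethanol libraries, against 4.41, 3.64, 3.89 and 4.64 in saline libraries. Every ethanol library lay below every saline library, with means of 3.11 ± 0.327 for ethanol and 4.15 ± 0.459 for saline (SD, n = 4 each) and a log2 difference of -0.41. The two-sided exact permutation p was 0.0286, the smallest that the 70 arrangements of 8 libraries can give, and 0.0857 after Benjamini-Hochberg adjustment over the 3 ratios, so it did not pass 0.05. The difference lay mainly in Psmb7, whose log2 fold change was 0.40, while that of Psmb10 was -0.02. This ratio is therefore not evidence separate from the Psmb7 values. The overlap of Psmb7 with Nek6 bears on this ratio as well.

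For the remaining pairs the groups overlapped. The ratio of Psmb8 to Psmb5 averaged 3.50 ± 0.512 in ethanol and 3.20 ± 0.263 in saline (SD, n = 4 each; log2 difference 0.12, exact permutation p = 0.371, adjusted 0.557). The ratio of Psmb9 to Psmb6 averaged 0.355 ± 0.0426 in ethanol and 0.362 ± 0.0332 in saline (SD, n = 4 each; log2 difference -0.03, exact permutation p = 0.83, adjusted 0.83). The ratios of the pairs therefore did not share a direction.

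**Figure D3:**
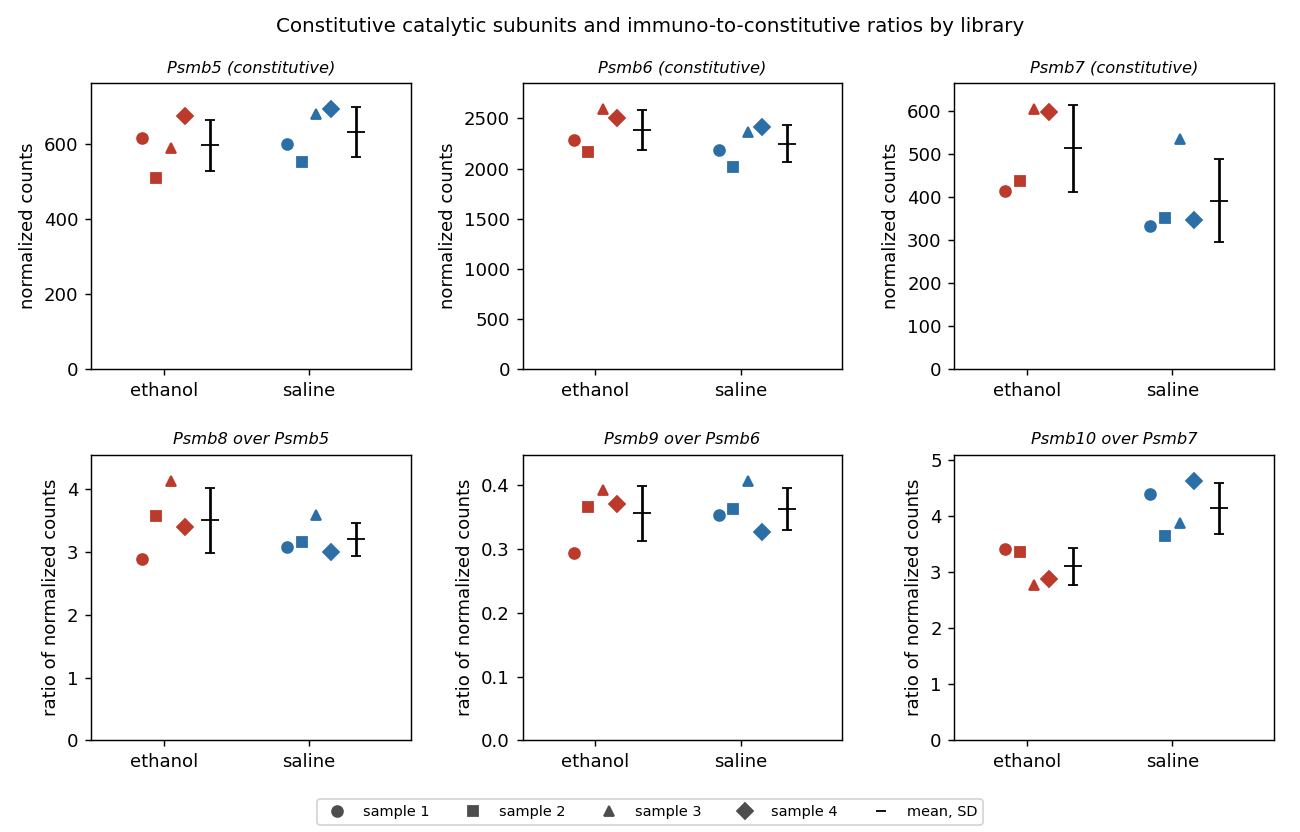
Normalized counts of the constitutive catalytic genes (upper panels) and ratios of each immunoproteasome gene to its counterpart (lower panels) by library, with ethanol left of saline, 1 symbol per sample number, and the mean and SD of 4 libraries. Psmb10 over Psmb7 is the ratio without overlap, at 2.78 to 3.42 in ethanol and 3.64 to 4.64 in saline.

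The other genes of the core showed no call. Of the 8 alpha ring genes, which gate the barrel, 2 had positive fold changes and 6 negative ones, with a median log2 value of -0.01. Psma7 had the smallest p of them in the higher direction, with 2429, 2339, 2714 and 2887 normalized counts in ethanol libraries, against 2242, 2316, 2546 and 2436 in saline libraries, and a fold change of 1.08 (0.956 to 1.23; unadjusted p = 0.192 and adjusted p = 0.997, limma). Of the 4 non-catalytic beta ring genes, 3 were positive, with a median of 0.03. The groups overlapped for each of these 12 genes.

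The level of the 19S particle varied little. Its 17 genes summed to 30343, 29580, 29606 and 31557 normalized counts in ethanol libraries, against 30394, 30069, 30382 and 30241 in saline libraries. The means were 30272 ± 927 for ethanol and 30272 ± 152 for saline (SD, n = 4 each). Of the 6 ATPase genes, which unfold the substrate, 4 had positive fold changes, and of the 11 non-ATPase genes, which include ubiquitin receptors and the deubiquitinase Psmd14, 5 did, with medians of 0.01 and -0.02.

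Psmc1, an ATPase gene, had 2566, 2295, 2521 and 2547 normalized counts in ethanol libraries, against 2081, 2319, 2542 and 1986 in saline libraries, and a fold change of 1.12 (0.979 to 1.27; unadjusted p = 0.0941 and adjusted p = 0.997, limma). The scaffold gene Psmd11 had 1757, 1821, 1791 and 1932 in ethanol libraries, against 1912, 2126, 2206 and 1818 in saline libraries, and a fold change of 0.908 (0.800 to 1.03; unadjusted p = 0.125 and adjusted p = 0.997, limma). In both genes some libraries of each group lay within the range of the other group.

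The 5 activator genes had negative fold changes without exception, with a median log2 value of -0.09, and none passed the adjusted test. All 5 were also negative under quantile and TMM scaling, while 1 of them (Psme3) was positive without ethanol sample 3. Psme4, whose product PA200 caps the core without ubiquitin, had 725, 679, 680 and 498 normalized counts in ethanol libraries, against 857, 923, 648 and 729 in saline libraries. Its fold change was 0.817 (0.663 to 1.01; unadjusted p = 0.0570 and adjusted p = 0.997, limma), and saline sample 3 was below 3 of the ethanol libraries. Psme2b had 402, 484, 436 and 355 in ethanol libraries, against 451, 484, 576 and 540 in saline libraries, and a fold change of 0.816 (0.667 to 0.999; unadjusted p = 0.0490 and adjusted p = 0.997, limma). Psme2b is a near copy of Psme2, and its value is uncertain because reads of shared sequence cannot be told apart.

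The interferon-inducible PA28 genes Psme1 and Psme2 had narrower differences. Psme1 had 1232, 1493, 1366 and 1498 normalized counts in ethanol libraries, against 1344, 1646, 1513 and 1444 in saline libraries, with a fold change of 0.939 (0.814 to 1.08). Psme2 had 1666, 1726, 1800 and 1890 in ethanol libraries, against 1655, 1784, 2033 and 1908 in saline libraries, with a fold change of 0.962 (0.845 to 1.09). Psme3, which encodes the nuclear PA28 gamma, had 1631, 1823, 1370 and 1430 in ethanol libraries, against 1725, 1752, 1377 and 1630 in saline libraries, with a fold change of 0.963 (0.821 to 1.13). The groups overlapped for all 3.

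Psmf1 encodes PI31, a protein that binds the core and was first described as its inhibitor. It had 775, 943, 691 and 801 normalized counts in ethanol libraries, against 732, 606, 674 and 674 in saline libraries. The means were 802 ± 105 for ethanol and 672 ± 51.6 for saline (SD, n = 4 each), with a fold change of 1.19 (1.00 to 1.42; unadjusted p = 0.0503 and adjusted p = 0.997, limma). Ethanol sample 3 lay below saline sample 1, and the other ethanol libraries were above every saline library.

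The 4 genes for chaperones of 20S assembly also had negative fold changes without exception, with a median log2 value of -0.13. All 4 were also negative under quantile and TMM scaling. Psmg2 was positive within samples 1 and 2, and Psmg4 within samples 3 and 4. Without ethanol sample 1, and without saline sample 3, 1 of the 4 was positive. Psmg3 had 284, 250, 278 and 284 normalized counts in ethanol libraries, against 292, 286, 327 and 364 in saline libraries, a fold change of 0.866 (0.696 to 1.08; unadjusted p = 0.181 and adjusted p = 0.997, limma). Psmg3 was the 1 member whose groups did not overlap, with every ethanol library below every saline library, beside 1.2% of all tested genes in that direction. In the opposite direction no member lacked overlap, beside 1.12% of all tested genes. Psmg4 had 72.8, 91.2, 163 and 126 in ethanol libraries, against 92.5, 111, 146 and 116 in saline libraries, and varied more within each group than between them. Of the 3 chaperones of 19S assembly, 2 had positive fold changes, with a median of 0.04.

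Genes that work with the proteasome were read from the same fit, and none was called. The 10 other components and partners (3 positive, median log2 fold change -0.03) include Pomp, the maturation factor of the core, at 1.03-fold (0.882 to 1.19). The 10 genes of the bounce-back response, which restores proteasome transcription when degradation fails (3 positive, median -0.06), include its transcription factor Nfe2l1 at 1.03-fold (0.916 to 1.17). Of the 14 ubiquitin, E1 enzyme and shuttle genes, 6 were positive, with a median of -0.05. The median of all tested genes was -0.01.

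Interferon signalling is the route that induces the immunoproteasome. Of its 14 control genes, 8 were positive, with a median of 0.02. Among them Irf1, a transcription factor gene, was at 0.965-fold (0.821 to 1.13) and the class I transactivator Nlrc5 at 1.14-fold (0.773 to 1.69). Of 22 tested interferon response genes, 18 were positive, with a median log2 fold change of 0.10, and none was called. Their sum, with 1 further gene of the list below the limit, was 8644, 9502, 12736 and 10723 normalized counts in ethanol libraries, against 9657, 9202, 10137 and 9657 in saline libraries, so the highest and the lowest library were both in the ethanol group. Of the 9 genes that supply peptides to class I molecules, 4 were positive, with a median of -0.02. Tap1, the peptide transporter gene next to Psmb9, was at 1.01-fold (0.843 to 1.21).

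A shared movement of the core genes ran along the sample numbers, in both groups. The summed core was higher in samples 3 and 4 of each group than in samples 1 and 2, a division taken from earlier results of these data and described here without a test. It was 24460, 24426, 29042 and 28608 normalized counts in ethanol samples 1 to 4, against 24466, 24418, 29761 and 26488 in saline samples 1 to 4. The group means of this sum were 26634 ± 2536 for ethanol and 26283 ± 2511 for saline (SD, n = 4 each). The core to 19S ratio was 0.806, 0.826, 0.981 and 0.907 in ethanol libraries, against 0.805, 0.812, 0.980 and 0.876 in saline libraries. The immunoproteasome catalytic genes moved with the core, summing to 3866, 4082, 5124 and 4940 in ethanol libraries, against 4075, 3758, 5477 and 4473 in saline libraries.

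**Figure D4:**
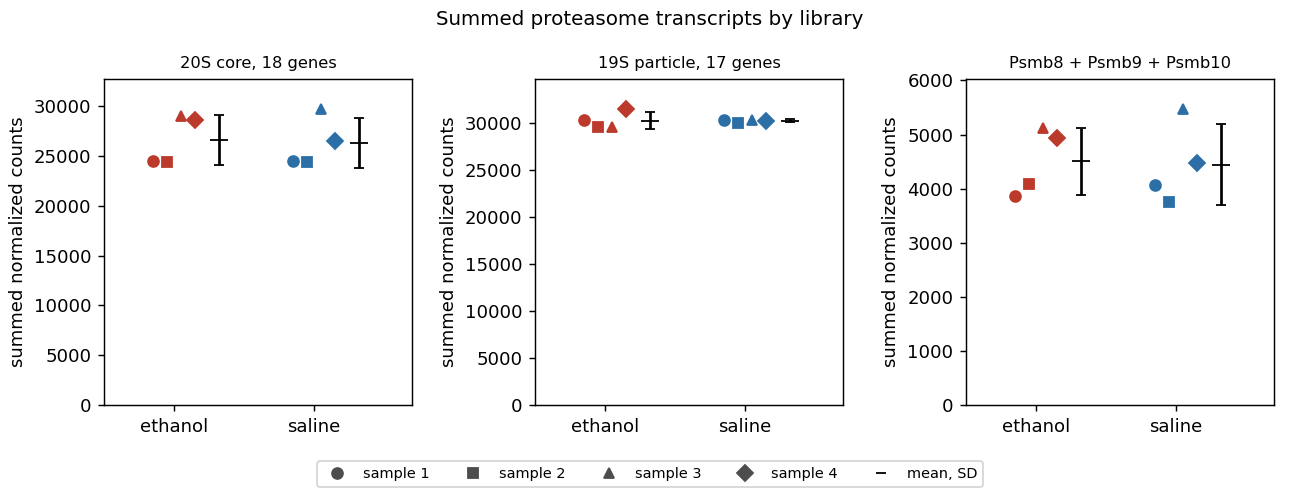
Summed normalized counts of the 18 core genes, the 17 19S genes and the 3 immunoproteasome catalytic genes by library, with ethanol left of saline, 1 symbol per sample number, and the mean and SD of 4 libraries. Samples 3 and 4 of each group lie above samples 1 and 2 for the core, while the 19S sums stay between 29580 and 31557.

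Gene by gene, samples 3 and 4 were all above samples 1 and 2 in 8 of 48 members, beside 4.54% of all tested genes. These were Psmb3, Psmb6, Psmb8, Psmb10, Psma6, Psma7, Psme2 and Psmg4. They were all below in Psmd7 and Psme3, beside 3.49% of all tested genes. The median log2 difference (3 and 4 minus 1 and 2) was 0.22 over the 18 core genes, of which 17 were positive, and 0.02 over the 17 19S genes, of which 11 were positive. Over all tested genes it was -0.01, with 48.4% positive. Under quantile and TMM scaling 17 of 18 core genes were positive as well, with medians of 0.23 and 0.22. The 19S genes had 13 of 17 positive with a median of 0.05 under quantile scaling, and 11 of 17 with 0.03 under TMM scaling. The comparison of core with 19S was chosen after these values were seen.

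Exon length moved with the same division. This length joins the exons of all protein-coding transcripts of a gene, so it can exceed that of any single transcript. It was found for 11328 of the 14428 tested genes, and the length classes hold only these. The median difference was 0.25 over the 477 tested genes shorter than 1 kb of exon, 0.08 from 1 to 2 kb (2133 genes), -0.01 from 2 to 4 kb (4371 genes) and -0.06 at 4 kb or more (4347 genes). Core genes were shorter, with a median of 1.21 kb against 1.99 kb for 19S genes. Below 1 kb the median was 0.20 for 4 core genes, under the 0.25 of all genes of that length, and no 19S gene was that short. Within 1 to 2 kb it was 0.29 for 11 core genes and 0.02 for 9 19S genes, beside the 0.08 of all genes of that length. Within 2 to 4 kb it was 0.23 for 3 core genes (Psma2, Psma3 and Psmb1) and 0.04 for 8 19S genes. Joined exons can place a gene in a longer class than its main transcript, so core and 19S genes of a class may differ in transcript length. The library names carry a number of their own, whose meaning the labels do not give, and Psmb8 averaged 2431 normalized counts in libraries with 163, 2067 with 164 and 1781 with 165. The part of length, of this number and of RNA quality in the pattern was not tested. Between ethanol and saline, the median log2 fold change was -0.01 in each of the 4 length classes.

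**Figure D5:**
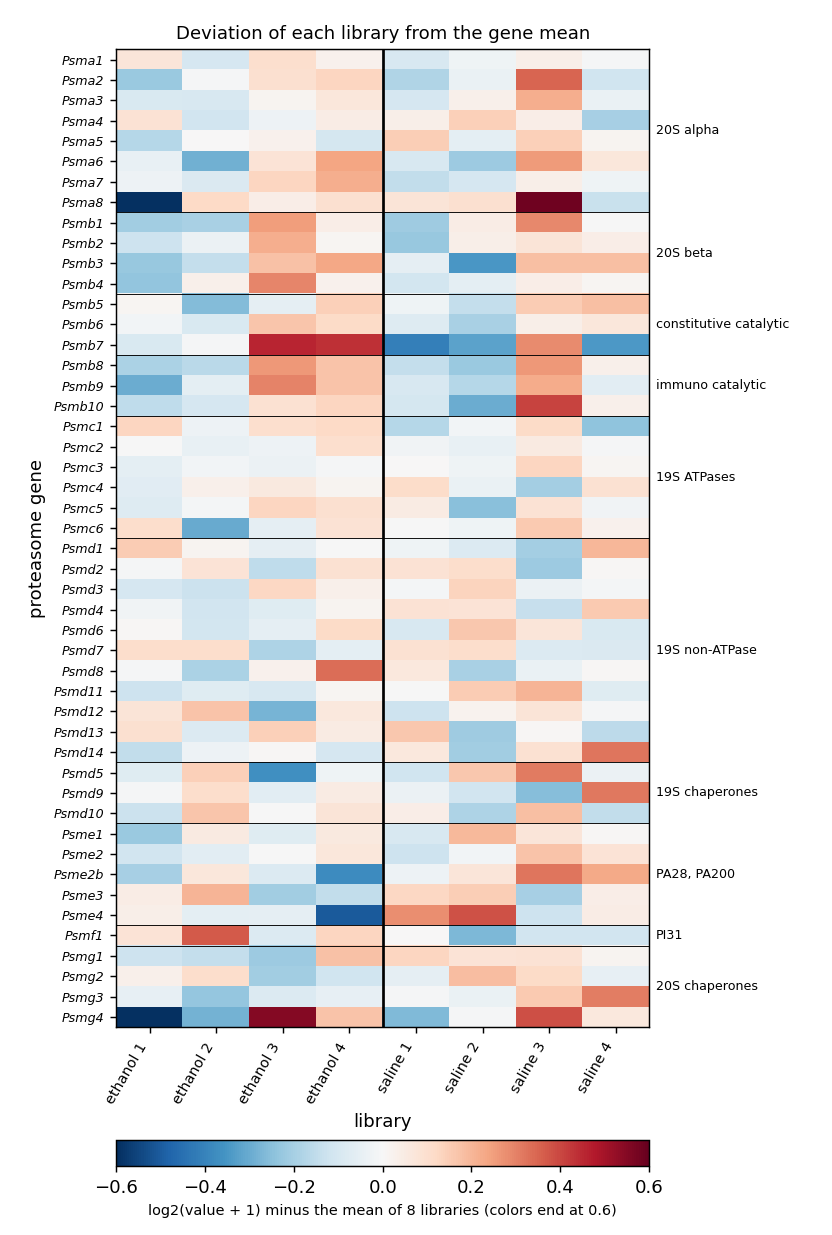
Deviation of log2(value + 1) in each library from the mean of the 8 libraries for each proteasome gene, with ethanol libraries left of the black line and saline libraries right of it (colors end at 0.6 in either direction). Of 18 core genes, 3 to 5 lie above their gene mean (red) in samples 1 and 2 of both groups, 16 to 18 in ethanol samples 3 and 4 and saline sample 3, and 9 in saline sample 4, while of 17 19S genes 5 to 13 do in any library.

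Overlapping and duplicated genes limit some members. Exons of 14 members overlap those of another gene in GENCODE M21, and in 6 of them that gene has a mean of at least 100 normalized counts (Psmb7 with Nek6, Psmb9 with Tap1, Psmc3 with Slc39a13, Psmd13 with Sirt3, Psme1 with Emc9 and Psme2b with 9930111J21Rik1). The 5 Psm pseudogene entries of the table reached at most 5.01 normalized counts in any library.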

How the data were processed

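Microglial RNA was pre-amplified with the SMARTer v4 kit and made into unstranded NexteraXT libraries, per the labels' protocols. The submitters' processing notes name bcl2fastq 2.19.1, STAR 2.7.9a, featureCounts 2.0.1, Salmon 1.5.2, DESeq2, R 4.2.2 and GRCm39, without their order. The authors deposited 1 table of DESeq2-normalized counts, a signal per gene and library that the authors had divided by size factors. Whole reads were recovered from its steps: 159355 of 159355 non-zero values (100%) were whole within 1e-06 once multiplied back. Printed 95% intervals are from limma and measure the spread between libraries. In limma the variance of each gene is drawn towards that of genes of like level. Its intervals and p-values therefore rest in part on other genes.

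Genes with a mean of at least 10 were tested on log2(value + 1) with limma 3.58.1 (trend) in R 4.3.3, two-sided, with Benjamini-Hochberg adjustment at 0.05 over all of them. Fold changes are on that scale and understate changes of low genes. The edgeR 4.0.16 quasi-likelihood test and DESeq2 1.42.0 on recovered reads were alternatives. Immunoproteasome to constitutive ratios were compared by exact permutation. The limma steps were tested on simulated data. Fold changes are printed for the catalytic, activator and PI31 genes, for 4 members of each direction, those of lowest unadjusted p, and for 5 other genes (Pomp, Nfe2l1, Irf1, Nlrc5 and Tap1), while 1 further gene of this rule is not reported here. The Psma8 extreme was named after its value was seen. Members and lists were chosen with earlier results of these data known. Lengths came from GENCODE M21 (GRCm38) and promoters from RefSeq (GRCm38.p6), matched by symbol, so no coordinate was carried between builds. Plots used matplotlib 3.10.9.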

Additional observations from a re-analysis of the deposited data

Results flagged for a closer look

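Of 102 sets of 4 libraries (96 of the 48 members by group and 6 of the 3 ratios by group), 5 had 1 library far from the other 3 by Dixon's criterion, all 5 among the members, and chance gives about 1 in 20. Psma8 was at 46.71 normalized counts in ethanol sample 1, below 89.3 to 94.2 in the other ethanol libraries. Psmc1 was at 2295 in ethanol sample 2, below 2521 to 2566 in the others. Psmb2 was at 1201 in saline sample 1, below 1439 to 1484. Psmb7 was at 536.2 in saline sample 3, above 332 to 352 in the other saline libraries, and without that library its log2 fold change was 0.56. Psmd3 was at 1424 in saline sample 2, above 1268 to 1290.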

How the results depend on the processing

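No member and no gene passed an adjusted p of 0.05 under any alternative run (nor 0.10 in limma), including edgeR, DESeq2, quantile normalization, other pseudocounts and filters, and each library left out. Unadjusted p under 0.05 was reached by 0 members without ethanol sample 4 (3.58% of all genes), saline sample 2 (2.99%) or saline sample 4 (3.83%), and by up to 4 with samples 1 and 2 against 3 and 4 as a term (4.73%). Members with positive fold changes numbered 15 without ethanol sample 4, 25 without ethanol sample 1 and 24 under quantile normalization. Numbers pair samples only by label: deviations of same-numbered libraries correlated at 0.03, 0.06, 0.08 and 0.01. With the replicate block 0 genes and 0 members were called, and the ratio of Psmb10 to Psmb7 (log2 difference -0.41, which a block cannot alter in this balanced design) had an exact permutation p of 0.125 (adjusted 0.375), the smallest that 4 pairs can give. That ratio ran from -0.47 to -0.36 when each library was left out.

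Of 21 named genes, 14 kept their direction in every alternative. Signs turned for Psmb10 with the library name number as covariate (0.038), within samples 1 and 2 for Psmb9 (-0.044), Psmb10 (0.075) and Pomp (-0.055), and within samples 3 and 4 for Irf1 (0.0072) and Tap1 (-0.018). Leaving out each library, log2 fold changes ran from -0.041 to 0.13 for Psmb8, -0.036 to 0.16 for Psmb9, -0.12 to 0.12 for Psmb10, -0.13 to 0.0054 for Psme3, -0.036 to 0.11 for Pomp and -0.076 to 0.065 for Tap1, and the ratio of Psmb9 to Psmb6 from -0.081 to 0.057. The cause was not tested. Depth limits mainly Psma8 and Psmg4, the members with the fewest reads.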
